A study of Saccharomyces cerevisiae with 18 samples.

Results

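The mitochondrial chaperones described here are 8 nuclear genes of Saccharomyces cerevisiae, taken by name from the 5449 yeast genes that the array reads. They are HSP78 (YDR258C), HSP60 (YLR259C), HSP10 (YOR020C), SSC1 (YJR045C), ECM10 (YEL030W), MDJ1 (YFL016C), MGE1 (YOR232W) and SSQ1 (YLR369W). Each was read by 1 probe set of its own, and each exceeded the background limit on all 18 arrays, so all 8 entered the fit. The genes were taken by name and function, with earlier results of these data known.

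Most mitochondrial proteins are made in the cytosol, pulled into the matrix unfolded and folded there. Ssc1, the main matrix Hsp70, works in the import motor and in folding with the J-protein Mdj1 and the nucleotide exchange factor Mge1. Ecm10 is a paralog of Ssc1, and Ssq1 is an Hsp70 devoted to passing on newly built iron-sulfur clusters. Hsp60 forms ring-shaped folding chambers that Hsp10 closes as a lid. Hsp78 is a ClpB-type disaggregase, the matrix relative of cytosolic Hsp104, which resolves aggregated proteins together with the Ssc1 system. Several of these genes are known in yeast as heat shock genes.

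The study measured total RNA from ethanol-tolerant yeast strains on Affymetrix arrays, with 3 strains grown in 0%, 3% or 7% ethanol by volume and 2 samples in each of the 9 groups. The strains were a diploid and 2 haploids, which the labels call alpha and a and which are named here by those labels as the alpha-labelled and the a-labelled haploid. All were grown in fermentors in a rich peptone medium with a high glucose content, and were collected at mid-exponential phase, so the 0% cultures differed from the others in the added ethanol alone as far as the labels state. The labels do not say whether the samples of a group came from separate cultures, so the p-values measure the spread between these samples, which may be technical.

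Signals are given after scaling each array to the same trimmed mean, on a linear scale. Scaling factors ran from 0.84 to 1.19, and between 5229 and 5333 genes were above the background limit on an array. Arrays of the same group had an SD of 0.116 to 0.158 in log2 signal. The mating-type transcripts did not all follow the labels: the mean signals of the 5 alpha-specific genes ran from 1763 to 4391 in the alpha-labelled haploid and 991.3 to 4665 in the a-labelled haploid, against 7.69 to 95 in the diploid. The 7 a-specific genes stayed between 4.49 and 30.8 in all 3 strains. Each array read the RNA of a whole culture, and a lower share of expressing cells cannot be told apart from less RNA per cell.

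HSP78, the disaggregase gene, fell in 7% ethanol in every strain. In the alpha-labelled haploid its signal was 493.9 and 630.3 on the arrays at 0%, 326.3 and 312.7 at 3%, and 173.3 and 167.4 at 7%. In the a-labelled haploid it was 571.8 and 569.2 at 0%, 589.2 and 591.5 at 3%, and 356.7 and 349.3 at 7%. In the diploid it was 607.2 and 532.8 at 0%, 655.2 and 586.1 at 3%, and 247.9 and 215.5 at 7%. The 6 arrays at 7% all lay below the 6 arrays at 0%, and the strains differed at 3%, where the alpha-labelled haploid alone was already low. The order of the group means put 5 groups close together at the top, from 620.7 in the diploid at 3% to 562.1 in the alpha-labelled haploid at 0%. Below them came the a-labelled haploid at 7%, the alpha-labelled haploid at 3%, the diploid at 7% and, at 170.4, the alpha-labelled haploid at 7%, and the arrays of these 4 groups did not overlap. The share of all genes whose arrays separate in such ways was not counted, here or for the genes below.

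**Figure D1:**
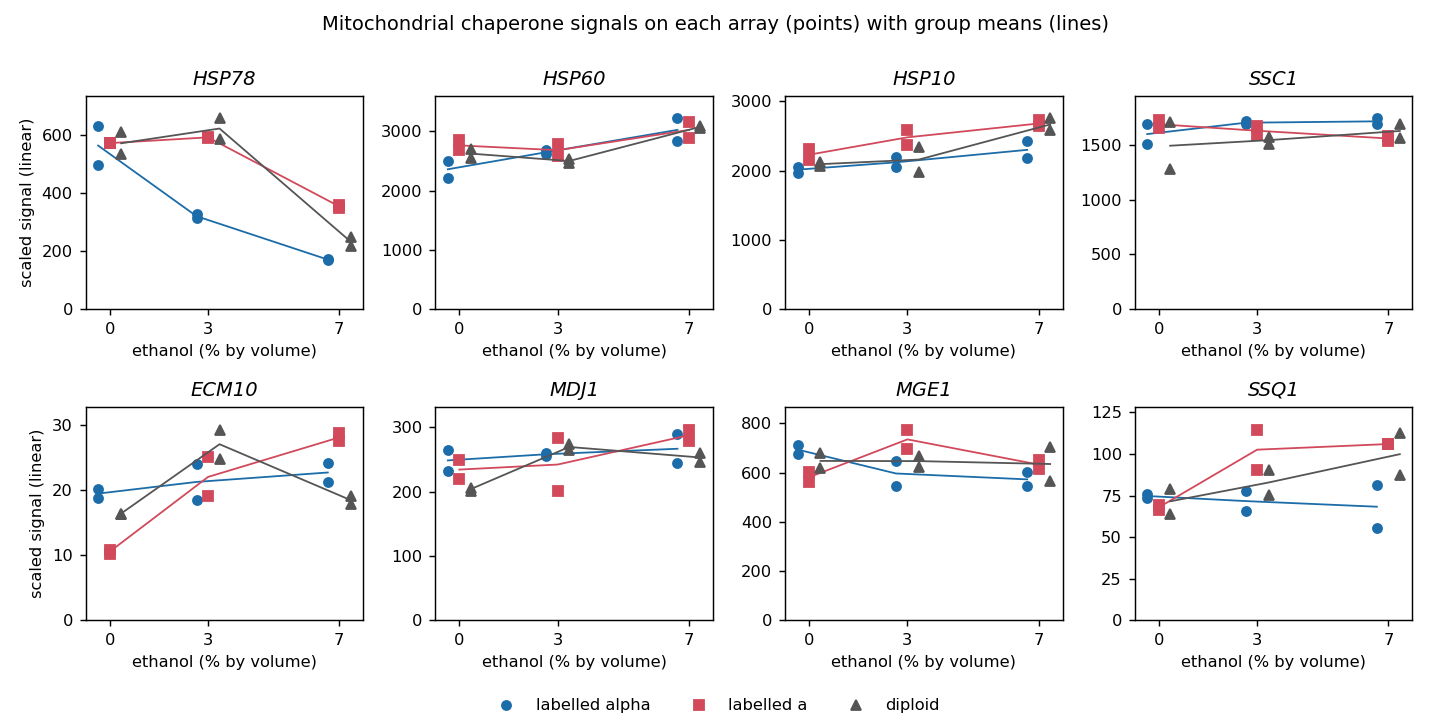
Scaled signal (linear, each axis from 0) of the 8 mitochondrial chaperone genes against ethanol in % by volume, with a point for each array and lines through the group means of 2 arrays for the alpha-labelled haploid (circles), the a-labelled haploid (squares) and the diploid (triangles). HSP78 ends between 167.4 and 356.7 at 7% after starting at 493.9 or above, and its group means differ 3.64-fold, against 2.67-fold for ECM10 and less for the other 6 genes.

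In the mean of the 3 strains, HSP78 was 2.26-fold lower at 7% than at 0%, a log2 change of -1.18 ± 0.061 (SE, adjusted p = 4.92e-13). Changes here are on the log2(signal + 16) scale, from limma's moderated test with Benjamini-Hochberg adjustment over the 5363 genes tested and a threshold of 0.05. It held rank 108 of these genes, counted from the largest fall. Within strains the change was -1.62 ± 0.11 in the alpha-labelled haploid (adjusted p = 8.13e-11), -0.67 ± 0.11 in the a-labelled haploid (adjusted p = 1.6e-05) and -1.24 ± 0.11 in the diploid (adjusted p = 3.78e-09). The fall was called in the mean of strains under all 32 alternative settings, between -1.43 and -0.96.

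At 3% ethanol the fall of HSP78 belonged to 1 strain. It was -0.78 ± 0.11 in the alpha-labelled haploid (adjusted p = 1.54e-05), whereas the a-labelled haploid was at 0.048 (95% interval -0.17 to 0.27) and the diploid at 0.12 (95% interval -0.10 to 0.34), neither of them called. The mean of strains was -0.20 ± 0.061 (adjusted p = 0.00975), which became 0.084 (adjusted p = 0.336) without the alpha-labelled haploid and lost its call without scaling (adjusted p = 0.0811). From 3% to 7% the gene fell in each strain, with changes of -0.85 ± 0.11 in the alpha-labelled haploid, -0.72 ± 0.11 in the a-labelled haploid and -1.36 ± 0.11 in the diploid (adjusted p = 3.31e-06, 2.05e-05 and 1.55e-09).

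The strains were set against each other by testing the difference of their changes. The change at 3% was higher by 0.82 ± 0.15 in the a-labelled haploid than in the alpha-labelled haploid (adjusted p = 0.00105), and the change at 7% by 0.95 ± 0.15 (adjusted p = 0.000102). These differences kept their calls under all 29 alternatives, at 0.63 to 0.99 and 0.68 to 1.13. The diploid differed from the mean of the haploids by 0.48 ± 0.13 at 3% (adjusted p = 0.0214) and by -0.58 ± 0.13 from 3% to 7% (adjusted p = 0.00362), but the total change at 7% differed by -0.096 (adjusted p = 0.698). The first of these calls ended without scaling (adjusted p = 0.299), without the second diploid array at 0% (0.39, adjusted p = 0.106) and without the first diploid array at 3% (0.41, adjusted p = 0.133).

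Each haploid was also set against the diploid, a comparison added after the signals had been seen. At 3% the change of HSP78 in the diploid was 0.90 ± 0.15 above that in the alpha-labelled haploid (adjusted p = 0.000608, with 10.8% of genes called in this comparison) and 0.073 above that in the a-labelled haploid (95% interval -0.24 to 0.38, adjusted p = 0.804, 11% called). At 7% the diploid lay -0.57 ± 0.15 from the a-labelled haploid (adjusted p = 0.0129, 18.1% called), a call that ended without the first diploid array at 0% (-0.48, adjusted p = 0.0608) or the second at 7% (-0.48, adjusted p = 0.0743). Its distance from the alpha-labelled haploid at 7% was 0.38 (95% interval 0.070 to 0.69, adjusted p = 0.0824, 17.8% called), and this was called when the first array of the alpha-labelled haploid at 0% was left out (0.55, adjusted p = 0.0184).

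The genes whose 9 group means followed HSP78 most closely were GLG1, which primes glycogen synthesis (Pearson r = 0.99), LAM5 (r = 0.97) and OXR1 (r = 0.96). They are the top 3 among 4188 genes whose group means spanned at least 0.5 on the log2 scale, and are given as a description. The group means of HSP78 spanned 1.77, those of GLG1 2.15.

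The group means of the other 7 chaperone genes spanned from 0.21 for SSC1 to 0.73 for ECM10 on the log2(signal + 16) scale. For the dim ECM10 this scale understates the change, since its group means differed 2.67-fold in signal, against 3.64-fold for HSP78. Over the 3 strains together at 7%, 5 of the 8 genes were called higher and 1 lower, in a comparison that called 48.3% of all genes higher and 22.3% lower. With quantile normalization 2 were called higher and 1 lower, beside 1874 and 1844 of the 5363 genes tested. With median centring it was 0 higher and 3 lower, beside 1623 and 2207 genes. At 3% against 0%, ECM10 was called higher and HSP78 lower, with 32% and 17.3% of all genes called. Also at 3%, HSP10 was at 0.088 (adjusted p = 0.12), MDJ1 at 0.15 (adjusted p = 0.0829) and SSQ1 at 0.21 (adjusted p = 0.0582), and other settings or single arrays changed whether they were called. HSP10 was called with quantile normalization (0.11, adjusted p = 0.0255), and SSQ1 without the alpha-labelled haploid (0.33, adjusted p = 0.0113). MDJ1 was called without the a-labelled haploid (0.21, adjusted p = 0.0279) and when the fit held the 18S rRNA signal as covariate (0.25, adjusted p = 0.00462). Among single arrays, HSP10 was called without the first diploid array at 3% (0.13, adjusted p = 0.0286) and MDJ1 without the first array at 3% of the a-labelled haploid (0.23, adjusted p = 0.00523). SSQ1 was called without any 1 of 6 arrays (0.21 to 0.25, adjusted p = 0.0293 to 0.0485), namely the second at 3% or either at 7% of the alpha-labelled haploid, the second at 3% of the a-labelled haploid, or the second diploid array at 0% or at 3%. From 3% to 7%, HSP60 and HSP10 were called higher and HSP78 lower, beside 38% and 18.3% of all genes. The median change of the 8 genes at 7% was 0.23, and that of all genes tested was 0.13.

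**Figure D2:**
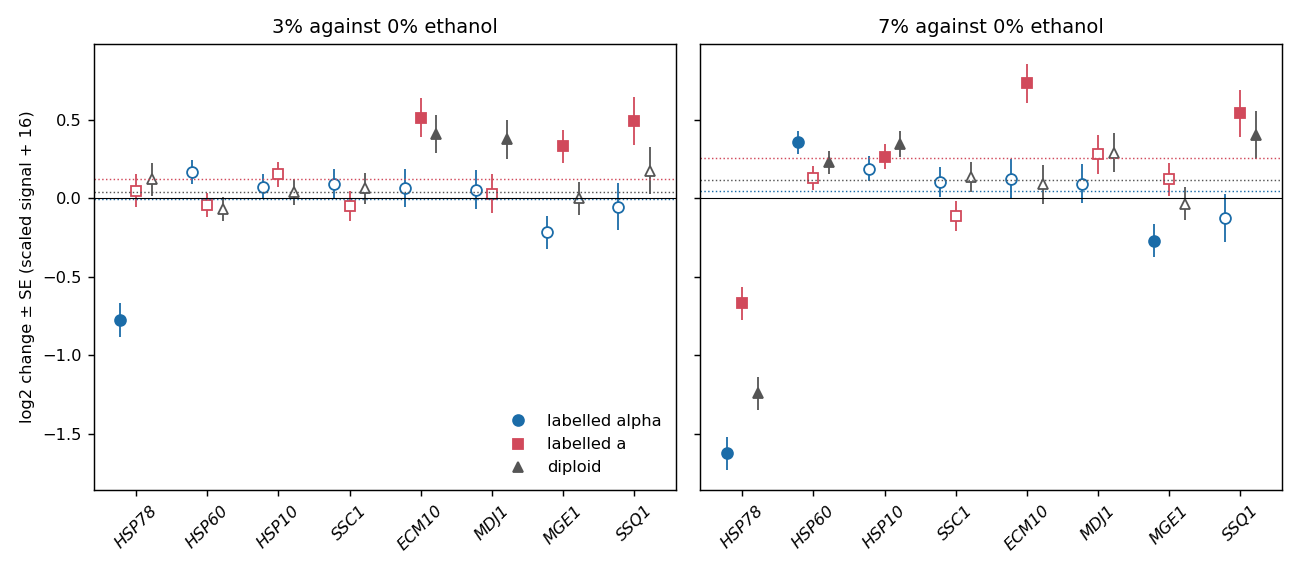
Log2 change of each mitochondrial chaperone gene at 3% (left) and 7% (right) ethanol against 0%, on the log2(signal + 16) scale with its SE, in the alpha-labelled haploid, the a-labelled haploid and the diploid (2 arrays per group). Filled points were called and open points were not, and dotted lines in the colour of a strain mark its median change over all genes. HSP78 is at -0.78 at 3% in the alpha-labelled haploid only, and between -1.62 and -0.67 at 7% in all 3 strains.

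HSP60 and HSP10, the chaperonin and its lid, were both called higher at 7% in the mean of strains under the reported scaling. HSP60 signals at 0% were 2497 and 2219 in the alpha-labelled haploid, 2845 and 2675 in the a-labelled haploid, and 2549 and 2695 in the diploid. At 7% they were 3214 and 2830, 3149 and 2892, and 3060.3 and 3088 in the same order of strains. Each strain's arrays at 7% lay above its own arrays at 0%, and the 6 arrays at 7% also lay above the 6 at 3%, which ran from 2456 to 2784. How many of all genes separate in this way was not counted, and 48.3% of all genes were called higher at 7%. The change from 0% to 7% in the mean of strains was 0.24 ± 0.043 (adjusted p = 5.59e-05), a 1.18-fold higher signal.

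HSP10 signals at 0% were 1969 and 2056 in the alpha-labelled haploid, 2146 and 2309.6 in the a-labelled haploid, and 2058 and 2125 in the diploid. At 7% they were 2176 and 2420.4, 2722 and 2635, and 2578 and 2751. Again no array at 7% fell within the range of its own strain at 0%, and the arrays at 3%, from 1978 to 2586, lay between and across both. The change at 7% was 0.27 ± 0.046 (adjusted p = 3.41e-05), and from 3% to 7% it was 0.18 ± 0.046 (adjusted p = 0.00277), against 0.22 ± 0.043 for HSP60 (adjusted p = 0.000222). Without the diploid the last step of HSP10 was 0.11 (adjusted p = 0.0988). Over the 9 group means the log2 signals of HSP60 and HSP10 had r = 0.81, and those of HSP60 and HSP78 r = -0.76, as a description of arrays that share their scaling.

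Both chaperonin rises lay near the middle of all genes. At 7% HSP60 stood 0.10 and HSP10 0.13 above the median change of all genes, at percentiles 59.6 and 62.3 of the genes tested, and HSP78 at percentile 2.0. Centring each array on its median lowered the mean-of-strains changes at 7% by 0.20. HSP60 was then at 0.036 (adjusted p = 0.545) and HSP10 at 0.065 (adjusted p = 0.324), while quantile normalization gave 0.31 and 0.39, both called. Without scaling HSP60 was at 0.12 (adjusted p = 0.095) and HSP10 at 0.15 (adjusted p = 0.0472). Their step from 3% to 7% was called neither with median centring (0.083 and 0.042) nor without scaling (0.12 and 0.076). HSP78 was called at -1.38 with median centring and -1.25 with quantile normalization.

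**Figure D3:**
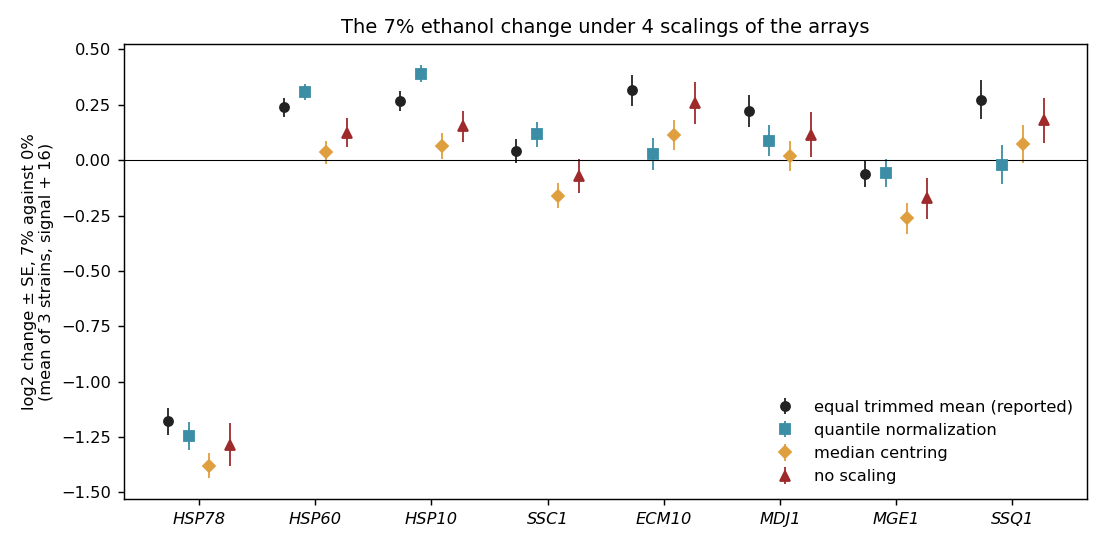
Log2 change at 7% against 0% ethanol in the mean of the 3 strains, with its SE, for each mitochondrial chaperone gene under the reported scaling to an equal trimmed mean, quantile normalization, median centring and no scaling. The points of HSP78 lie between -1.38 and -1.18, and those of SSC1 and SSQ1 fall on both sides of 0.

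Of the Hsp70 genes, ECM10 and SSQ1 were called at 7% in the mean of strains and SSC1 was not. SSC1, the main matrix Hsp70, had signals of 1278 to 1726 at 0%, 1512 to 1715 at 3% and 1537 to 1742 at 7%, and the ranges overlapped throughout. Its change at 7% was 0.042 (95% interval -0.074 to 0.16, adjusted p = 0.516), and no contrast between ethanol levels called it in the mean of strains or within a strain. With median centring it was called lower at -0.16 in the mean of strains (adjusted p = 0.0193) and at -0.45 in the a-labelled haploid (adjusted p = 0.000691). In the diploid alone, leaving out the first array at 0% gave 0.34 at 7% (adjusted p = 0.00261) and 0.11 in the mean of strains (adjusted p = 0.0315), since the arrays of that group were at 1707 and 1278.

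ECM10, the Ssc1 paralog, was dim, at 1.83 to 5.5 times the background limit. In the a-labelled haploid its signal was 10.8 and 10.2 at 0%, 25.0 and 19.0 at 3%, and 28.7 and 27.4 at 7%. In the diploid it was 16.4 on both arrays at 0%, 29.2 and 24.8 at 3%, and 19.1 and 17.8 at 7%. In the alpha-labelled haploid it was 20.1 and 18.7, 24.0 and 18.4, and 21.2 and 24.1. The signal thus rose and stayed high in the a-labelled haploid, was high at 3% in the diploid, and differed little between levels in the alpha-labelled haploid.

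The change of ECM10 in the mean of strains was 0.33 ± 0.07 at 3% (adjusted p = 0.000711) and 0.31 ± 0.07 at 7% (adjusted p = 0.000486). The size depended on the pseudocount: with 1 in place of 16 the changes were 0.59 and 0.57, and with 64 they were 0.14 and 0.13, all called. At 3% the change was called under all 32 alternatives. At 7% it was 0.11 (adjusted p = 0.292) without the a-labelled haploid, 0.028 (adjusted p = 0.742) with quantile normalization and 0.11 with median centring, none of them called. In the a-labelled haploid the change was 0.51 ± 0.12 at 3% and 0.73 ± 0.12 at 7% (adjusted p = 0.00228 and 3.04e-05), or 1.33 at 7% with a pseudocount of 1. With quantile normalization these became 0.32 and 0.27 (adjusted p = 0.0548 and 0.0825). The diploid was at 0.41 ± 0.12 at 3% (adjusted p = 0.0223) and 0.088 at 7% (adjusted p = 0.564). The 3% call in the diploid ended without either of its arrays at 0% or its first at 3% (0.33 to 0.41, adjusted p = 0.0802 to 0.164), with quantile normalization (0.29, adjusted p = 0.129) and without scaling (0.40, adjusted p = 0.117).

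SSQ1, the Hsp70 of iron-sulfur cluster transfer, rose with ethanol in the a-labelled haploid and in the diploid. In the a-labelled haploid its signal went from 66.3 and 69.5 at 0% to 114.7 and 90.6 at 3% and 105.9 and 106.1 at 7%. In the diploid it was 64.2 and 79.0 at 0%, 90.5 and 75.3 at 3%, and 112.6 and 87.3 at 7%. In the alpha-labelled haploid the arrays at 7%, at 55.3 and 81.4, lay on both sides of those at 0%, at 73.7 and 75.9. The change at 7% was 0.27 ± 0.088 in the mean of strains (adjusted p = 0.00914), 0.54 ± 0.15 in the a-labelled haploid (adjusted p = 0.00431), 0.40 ± 0.15 in the diploid (adjusted p = 0.0298) and -0.12 in the alpha-labelled haploid (adjusted p = 0.537).

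The mean-of-strains call of SSQ1 ended without the a-labelled haploid (0.14, adjusted p = 0.282) or the diploid (0.21, adjusted p = 0.0904) and under each other scaling, with -0.021 after quantile normalization and 0.071 after median centring. The call in the diploid ended under each other scaling too, and without the first diploid array at 0% or at 7% (0.28 and 0.24, adjusted p = 0.225 and 0.29). Quantile normalization gave 0.015 (adjusted p = 0.944) and median centring 0.20 (adjusted p = 0.254) in the a-labelled haploid.

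Among the Hsp70 partners, MDJ1, the J-protein, had signals of 201.6 to 264.7 at 0%, 200.9 to 283.4 at 3% and 244.4 to 296.3 at 7%, with medians of 226.3, 262.5 and 269.9. Its change at 7% was 0.22 ± 0.072 (adjusted p = 0.00937), while within the strains it was 0.094, 0.28 and 0.29 (alpha- and a-labelled haploids, and diploid), none of them called. Leaving out either array at 3% of the a-labelled haploid made calls of the last 2 without altering their size. Those arrays enter the 7% comparison only through the shared estimate of the spread. Adding the 18S rRNA signal to the fit also made calls of the last 2 (0.42 and 0.33, adjusted p = 0.00294 and 0.0106). In the mean of strains it was 0.088 with quantile normalization, 0.020 with median centring, 0.12 without scaling and 0.19 without the diploid (adjusted p = 0.0955), none of them called. In the diploid MDJ1 was at 206.3 and 201.6 at 0% and at 274.4 and 264.6 at 3%, a change of 0.38 ± 0.12 (adjusted p = 0.037). That call ended when any 1 of these 4 arrays was left out (0.35 to 0.40, adjusted p = 0.11 to 0.153), with quantile normalization (0.31, adjusted p = 0.0776) and without scaling (0.35, adjusted p = 0.243).

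MGE1, the exchange factor, was called higher in the a-labelled haploid at 3% and lower in the alpha-labelled haploid at 7%, and at no ethanol level was it called in both. In the alpha-labelled haploid its signal was 710.6 and 675.7 at 0%, 546.5 and 645.9 at 3%, and 544.3 and 600.2 at 7%. In the a-labelled haploid it was 601.5 and 560.0 at 0%, 773.8 and 695.2 at 3%, and 613.6 and 650.9 at 7%. The arrays with ethanol lay below those without in the first strain and above them in the second, and in the diploid, from 566.7 to 702.4 at all levels, the ranges overlapped. The change was 0.33 ± 0.10 in the a-labelled haploid at 3% (adjusted p = 0.0149) and -0.27 ± 0.10 in the alpha-labelled haploid at 7% (adjusted p = 0.038), while the a-labelled haploid at 7% was at 0.12 (adjusted p = 0.328), or -0.22 with median centring, and the alpha-labelled haploid at 3% was at -0.22 (adjusted p = 0.139). The mean of strains at 7% was -0.062 (95% interval -0.19 to 0.064, adjusted p = 0.37).

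Both calls of MGE1 changed with single arrays and with the processing. The first ended without the second array at 0% or the first at 3% of the a-labelled haploid (0.28 and 0.25, adjusted p = 0.105 and 0.123), with median centring (0.15, adjusted p = 0.32), without scaling (0.32, adjusted p = 0.12) and with the 18S rRNA covariate (0.28, adjusted p = 0.0509). The second ended without either array at 0% or the first at 7% of the alpha-labelled haploid (-0.31 to -0.20, adjusted p = 0.0699 to 0.238), with quantile normalization (-0.25, adjusted p = 0.0654) and without the intensity trend (adjusted p = 0.0603). With median centring the mean of strains at 7% was called lower, at -0.26 (adjusted p = 0.00224).

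Counted by strain at 7% against 0%, 3 of the 8 genes were called in the alpha-labelled haploid (HSP60 higher, HSP78 and MGE1 lower), where 46.9% of all genes were called. In the a-labelled haploid, 4 were called (HSP10, ECM10 and SSQ1 higher, HSP78 lower) of a background of 63.5%, and in the diploid 4 (HSP60, HSP10 and SSQ1 higher, HSP78 lower) of 56.4%. The change of HSP60 was 0.36 ± 0.075 in the alpha-labelled haploid, 0.13 in the a-labelled haploid (adjusted p = 0.141) and 0.23 ± 0.075 in the diploid. The change of HSP10 was 0.19 (adjusted p = 0.0606), 0.26 ± 0.08 and 0.35 ± 0.08 in that order, and the first of these was called without the first array at 7% of its strain or either diploid array at 3% (adjusted p = 0.0378 to 0.0426), and with quantile normalization (0.23, adjusted p = 0.0114). HSP10 in the a-labelled haploid was at -0.075 with median centring (adjusted p = 0.537) and 0.23 without scaling (adjusted p = 0.103), and lost its call without the first array at 0% (0.21, adjusted p = 0.0693). In the diploid HSP60 and HSP10 lost their calls with median centring (0.029 and 0.15, adjusted p = 0.799 and 0.224) and without scaling (0.054 and 0.17, adjusted p = 0.735 and 0.252). HSP60 in the alpha-labelled haploid lost it without scaling (0.23, adjusted p = 0.119), and in the a-labelled haploid it was called with quantile normalization (0.29, adjusted p = 0.000746). HSP60 in the diploid also lost it without the first array at 0% or the second at 7% (0.19 and 0.22, adjusted p = 0.0984 and 0.0616).

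At 3% against 0%, 1 gene was called in the alpha-labelled haploid (background 25.2%), 3 in the a-labelled haploid (ECM10, MGE1 and SSQ1, background 43.5%) and 2 in the diploid (ECM10 and MDJ1, background 20.4%). SSQ1 in the a-labelled haploid was at 0.49 ± 0.15 (adjusted p = 0.0132), and this call ended without the first array at 0% or the first at 3% (0.46 and 0.35, adjusted p = 0.0662 and 0.145), with quantile normalization (0.21, adjusted p = 0.309), median centring (0.32, adjusted p = 0.097) and the 18S rRNA covariate (0.39, adjusted p = 0.051). From 3% to 7% only HSP78 was called in the alpha-labelled haploid (26.6%) and in the a-labelled haploid (37.9%). In the diploid 4 genes were called (43.7%), with HSP60 at 0.30 ± 0.075 and HSP10 at 0.31 ± 0.08 higher and HSP78 and ECM10 lower. ECM10 was at -0.32 ± 0.12 there (adjusted p = 0.0398), a call that ended when any 1 of the 4 diploid arrays at 3% and 7% was left out (-0.39 to -0.24, adjusted p = 0.0507 to 0.23). HSP10 there lost its call without the first array at 3% or the second at 7% (0.19 and 0.26, adjusted p = 0.119 and 0.0521). Both chaperonin calls there ended with median centring (0.13 and 0.14) and without scaling (0.15 and 0.16), and that of ECM10 with a pseudocount of 1 (-0.52, adjusted p = 0.0636).

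The tests of the difference between the haploids called HSP78 and MGE1 at 3% (18.9% of all genes called), and HSP78, ECM10, MGE1 and SSQ1 at 7% (37.9%). From 3% to 7% limma called 0 of the 8, and 0 had an unadjusted p under 0.05 (6.38% of all genes called). At 7% the change in the a-labelled haploid exceeded that in the alpha-labelled haploid by 0.61 ± 0.17 for ECM10 (adjusted p = 0.00996), 0.39 ± 0.15 for MGE1 (adjusted p = 0.0423) and 0.66 ± 0.21 for SSQ1 (adjusted p = 0.0207), while the median of all genes was 0.21. With quantile normalization these were 0.25, 0.35 and 0.22, and with median centring 0.33, 0.12 and 0.39, none of them called. Median centring also called HSP60 and SSC1 lower, at -0.50 and -0.49 (adjusted p = 0.00606 and 0.0128).

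Single arrays also decided some of these differences. For MGE1 at 7%, leaving out any 1 of 7 arrays ended the call (0.32 to 0.44, adjusted p = 0.0509 to 0.142): either array at 0% of either strain, either array at 7% of the a-labelled haploid, or the first at 7% of the alpha-labelled haploid. For SSQ1 at 7% the call ended without the second array at 0% or the first at 7% of the alpha-labelled haploid, or the first at 0% or the second at 7% of the a-labelled haploid (0.44 to 0.66, adjusted p = 0.0539 to 0.128). The MGE1 difference at 3% was 0.55 ± 0.15 (adjusted p = 0.015) and ended without the first array at 3% of the alpha-labelled haploid, or the second at 0% or the first at 3% of the a-labelled haploid (0.43 to 0.50, adjusted p = 0.0514 to 0.0776), with median centring (0.36, adjusted p = 0.148) and without scaling (0.54, adjusted p = 0.144).

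The test of the diploid against both haploids called HSP78 at 3% (8.97% of all genes called), 0 of the 8 at 7% (9.21%) and HSP78 and ECM10 from 3% to 7% (16.6%). At 7% 1 gene, ECM10, had an unadjusted p under 0.05 in limma's test, with a difference of -0.34 (adjusted p = 0.163). ECM10 differed by -0.46 ± 0.15 from 3% to 7% (adjusted p = 0.0407), and 9 of the 18 arrays ended that call when left out singly (-0.53 to -0.38, adjusted p = 0.055 to 0.191). These were the 4 diploid arrays at 3% and 7%, both arrays at 7% and the second at 3% of the a-labelled haploid, and the second arrays at 3% and 7% of the alpha-labelled haploid.

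Levels between strains were compared at each ethanol concentration. At 0% limma called 0 of the 8 genes between the diploid and the mean of the haploids (0 at an unadjusted p under 0.05; 18% of all genes called), although SSC1 was called at -0.36 (adjusted p = 0.00502) without the first diploid array. Between the haploids HSP60 was higher by 0.23 ± 0.075 and ECM10 lower, at -0.42 ± 0.12, in the a-labelled haploid (50.5% called; adjusted p = 0.0157 and 0.00755). The call of HSP60 ended without the second array of the alpha-labelled haploid or the first of the a-labelled haploid at 0% (0.14 and 0.18, adjusted p = 0.206 and 0.106), and that of ECM10 under each other scaling (-0.36 to -0.28). HSP78 was called in neither comparison at 0%, at 0.031 between the haploids (adjusted p = 0.823) and 0.011 between the diploid and the haploids (adjusted p = 0.956).

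At 3% the a-labelled haploid held more HSP78 signal than the alpha-labelled haploid, by 0.85 ± 0.11, and called higher were also HSP10 (0.22), MGE1 (0.30) and SSQ1 (0.43), with 36.7% of all genes called. The diploid exceeded the mean of the haploids in HSP78 alone of the 8, by 0.50 ± 0.091 (adjusted p = 0.000266, 31.9% called). That mean holds the low alpha-labelled haploid, at 326.3 and 312.7. The diploid arrays, at 655.2 and 586.1, lay on both sides of those of the a-labelled haploid, at 589.2 and 591.5. At 7% the a-labelled haploid exceeded the alpha-labelled haploid in HSP78 by 0.99 ± 0.11, in HSP10 by 0.22 and in SSQ1 by 0.55 (45.9% called), and limma called 0 of the 8 between the diploid and the haploids (22.2% called), with ECM10 alone at an unadjusted p under 0.05 (-0.26, adjusted p = 0.082).

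The smaller of these strain differences changed with single arrays, and with median centring HSP10, MGE1 and SSQ1 were called at 3% no longer (0.17, 0.25 and 0.38) and HSP10 not at 7% (0.085). At 3% HSP10 and MGE1 lost their calls without the first array of either haploid at that level (0.16 to 0.22, adjusted p = 0.198 to 0.295), and SSQ1 without the second of the alpha-labelled haploid or the first of the a-labelled haploid (0.33 and 0.28, adjusted p = 0.206 and 0.261). At 7% HSP10 lost its call without the first array of the alpha-labelled haploid or either of the a-labelled haploid (0.15 to 0.24, adjusted p = 0.0688 to 0.262), and SSQ1 without the first of the alpha-labelled haploid (0.32, adjusted p = 0.143).

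A few changes that were not called became so when 1 array was left out. HSP60 in the alpha-labelled haploid was at 0.17 at 3%, and at 0.25 without its first array at 0% (adjusted p = 0.0489), and its step from 3% to 7% was 0.28 without the second array at 7% (adjusted p = 0.0309). Without either of these arrays its change at 7% was also called lower in the a-labelled than in the alpha-labelled haploid (-0.31 and -0.32). The second array at 3% of the a-labelled haploid decided several results of MDJ1: without it, the step to 7% in that haploid was 0.49, the level against the alpha-labelled haploid at 3% was -0.34, and the diploid difference at 3% was 0.45. Without the same array ECM10 differed between the haploids at 3% by 0.56 (adjusted p = 0.0483). MGE1 from 3% to 7% was called at -0.15 in the mean of strains without the second diploid array at 7% (adjusted p = 0.0426). Its difference between the haploids at 0%, -0.25 with an adjusted p of 0.0519, was called without any 1 of 6 arrays, namely those at 3% of either haploid and the diploid arrays at 7% (adjusted p = 0.0377 to 0.0491).

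Pairs of genes were also compared within an array, as the difference of their log2(signal + 16) values at 7% against 0%, a comparison of 12 pairs added after the signals had been seen. HSP78 lost to each of the other 7 chaperone genes, by between -1.49 (to ECM10) and -1.12 (to MGE1) in the mean of strains and with the same sign in each strain. It changed by -1.29 against HSP104, its cytosolic relative. These 8 differences restate the fall of HSP78 and are given with no test. The other 4 pairs were tested with an exact two-sided permutation test over arrays within strains, whose 216 arrangements allow no p below 0.00926. HSP10 gained on MGE1 by 0.33 (exact p = 0.0185, not adjusted). The differences of HSP60 to MGE1, HSP60 to SSC1 and HSP10 to SSC1 were 0.30, 0.20 and 0.22 (exact p = 0.0463, 0.0648 and 0.0648, not adjusted). An adjustment over the 12 pairs would count the 8 HSP78 pairs, all at the lowest p possible. For this reason none of the 4 is called here.

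Neighbouring parts of the matrix folding and import machinery were read from lists of related genes, at 7% against 0% in the mean of strains, where 48.3% of all genes were called higher and 22.3% lower. Of 10 further matrix chaperones and co-chaperones 8 rose (80%) and 0 fell, with a median of 0.30. They included JAC1, the J-protein partner of Ssq1 (0.78 ± 0.069), ATP11 and ATP12, assembly factors of the ATP synthase catalytic core (0.59 and 0.51), FMC1 (0.45), the matrix prolyl isomerase CPR3 (0.27), MDJ2 (0.33), MCX1 (0.23) and TCM62 (0.20). ZIM17, which keeps Ssc1 soluble, was at 0.22 ± 0.15 (adjusted p = 0.188) and the AAA protein BCS1 at -0.029. With quantile normalization 4 rose and 1 fell, and with median centring also 4 and 1. All 5363 genes gave 1874 higher and 1844 lower with quantile normalization, 1623 and 2207 with median centring, and 1869 and 1369 without scaling. The recounts of this list and of those below stand beside these counts.

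Of 4 import motor genes, PAM16 (0.63 ± 0.071), PAM18 (0.38) and PAM17 (0.20) rose, and TIM44, which anchors Ssc1 at the channel, fell by 0.51 ± 0.10 on the log2 scale (adjusted p = 0.000218). Of 11 import channel and receptor genes 6 rose (54.5%, near the share of all genes) and 4 fell (36.4%). Median centring turned this to 3 higher and 5 lower. Higher were TIM23 (0.48), TOM70 (0.57) and TIM21 (0.43) among others, and lower were TOM40 (-0.37), TOM22 (-0.21), TOM7 (-0.21) and TIM17 (-0.15). Of 19 mitochondrial proteases and processing factors 9 rose (47.4%) and 4 fell (21.1%), shares like those of all genes, with a median of 0.11. The rises included SOM1, of the inner membrane peptidase (1.32), and AFG3 and YTA12, subunits of the matrix-facing AAA protease (0.83 and 0.58), and the prohibitin gene PHB2 (0.53). The falls were PCP1, the rhomboid protease (-0.48), MAS2, of the matrix processing peptidase (-0.34), and IMP2 and IMP1, of the inner membrane peptidase (-0.31 and -0.24). PIM1, the Lon protease that degrades what the chaperones cannot refold, was at -0.036 (adjusted p = 0.592). The median of the protease list was below 0 with quantile normalization (-0.045) and median centring (-0.092).

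Iron-sulfur assembly genes, which include the partners of Ssq1, gave 5 rises and 7 falls of 14 (35.7% and 50% of the list), with a median of -0.29. NFS1, the cysteine desulfurase, was at -0.89 ± 0.048, ferredoxin YAH1 at -0.81, the glutaredoxin GRX5 at -0.66 and the scaffold gene ISU1 at -0.65. JAC1, the exporter ATM1 (0.61), the frataxin gene YFH1 (0.45), ISD11 (0.18) and ARH1 (0.16) rose. The falls numbered 7 or 8 and the rises 3 under the other 3 scalings.

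**Figure D4:**
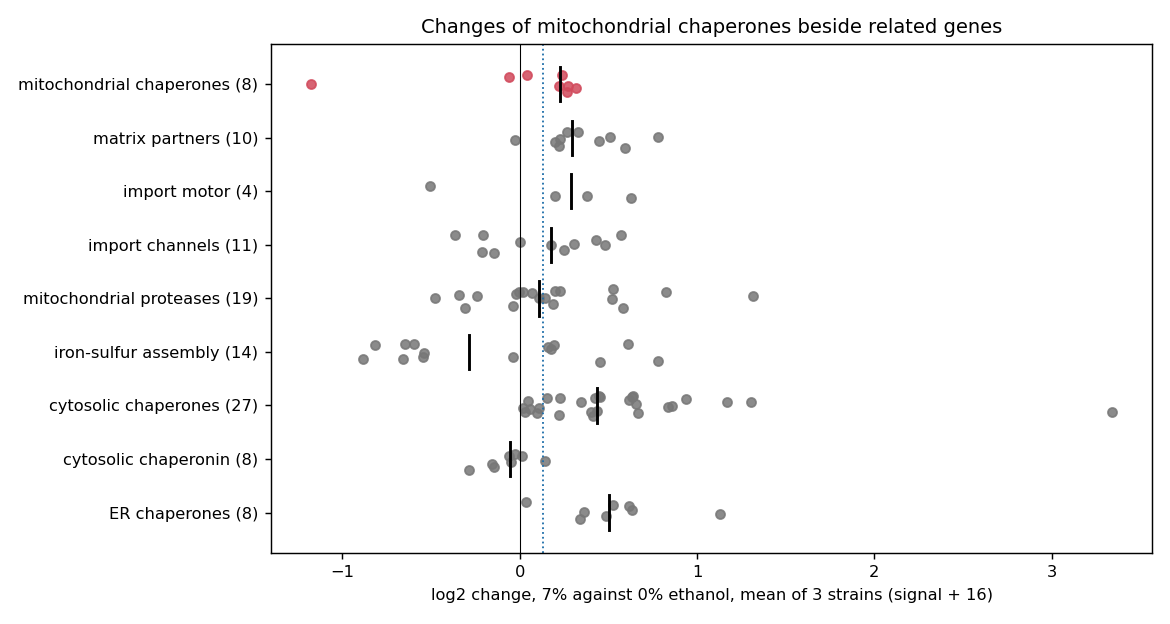
Log2 change at 7% against 0% ethanol in the mean of the 3 strains, on the log2(signal + 16) scale, for each gene (point) of the mitochondrial chaperones and of 8 lists of related genes, with the number of genes in brackets and JAC1 in 2 lists. Black bars are list medians and the dotted line is the median of all genes tested, 0.13; HSP78, at -1.18, is the leftmost point.

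Chaperones of other compartments were counted in the same way, beside 48.3% of all genes higher and 22.3% lower. Of 27 cytosolic chaperone genes 22 rose (81.5%) and 0 fell (median 0.44), with HSP26 at 3.34 ± 0.059, HSP82 at 1.31, CPR6 at 0.94 and SSA1 at 0.64. With median centring 18 rose and 4 fell. HSP104, the cytosolic disaggregase, was at 0.11 ± 0.057 (adjusted p = 0.087). Within strains HSP104 was called higher in the alpha-labelled haploid (0.28, adjusted p = 0.0249, 46.9% of all genes called). It was not called in the a-labelled haploid (0.0033) or the diploid (0.051). Of 8 chaperones and oxidative folding factors of the endoplasmic reticulum 7 rose (87.5%) and 0 fell (median 0.51): ERO1 (1.13), SIL1 (0.63), JEM1 (0.62), the Hsp70 gene KAR2 (0.53), SCJ1 (0.49), CNE1 (0.36) and LHS1 (0.34), while PDI1 was at 0.039. Of the 8 subunit genes of the cytosolic chaperonin 1 rose (CCT2, 0.14) and 3 fell (CCT3, -0.28 ± 0.051, CCT6, -0.16, and CCT8, -0.14), with a median of -0.053. With median centring 0 of them rose and 7 fell, and with quantile normalization 1 fell and the median was 0.003.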

How the data were processed

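Total RNA was labelled with biotin and hybridised to 1 array per sample. The deposited values are a linear intensity per probe set, made with GCOS per the submitters' processing notes. For its version and scaling, the sources used here give nothing. Of 10928 probe sets 5498 read S. cerevisiae genes. Each array was multiplied to give the same 2% trimmed mean over these, since trimmed means ran from 368.5 to 521.5, and 16 was added before log2.

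The 1746 probe sets whose annotated gene matched no S. cerevisiae reference gene, from another yeast or unmatched, served as background. The background limit was their 95th percentile, 4.6 to 7.58 in scaled signal. Genes above it on at least 2 arrays entered, 5363 of 5449. Genes with more than 1 probe set were read from the brightest. A mean per group was fitted to 18 arrays with limma 3.58.1 (lmFit, eBayes with an intensity trend; R 4.3.3), leaving 9 residual degrees of freedom. P-values are two-sided and Benjamini-Hochberg adjusted within a contrast. The number of arrays limits the precision. The fit was also run on simulated data with known changes in a small share of genes. These had no strain effects and no shifts in scaling, so the run cannot show how the results depend on scaling.

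The genes and lists were chosen with earlier results of these data known. All 8 chaperones are named, and from each list up to 4 genes with the smallest adjusted p at 7%, and the exceptions in direction; lists of 10 or fewer could be named in full. ISU1, PIM1 and HSP104 were added after their values were seen. Other scalings, pseudocounts, filters, blocks and omitted arrays were tried. Promoter and protein sequences were not analysed here.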

Additional observations from a re-analysis of the deposited data

Results flagged for a closer look

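Several chaperone genes changed with ethanol by different amounts in the strains, by limma's test of the difference itself. For HSP78 the change in the a-labelled haploid lay above that in the alpha-labelled haploid by 0.823 at 3% and by 0.955 at 7%. For MGE1 the same difference was 0.546 at 3% and 0.391 at 7%. At 7% it was also 0.606 for ECM10 and 0.664 for SSQ1, in a comparison where the median of all genes was 0.21 and 37.9% of genes were called. The diploid differed from the mean of the haploids by 0.484 for HSP78 at 3%, and from 3% to 7% by -0.581 for HSP78 and -0.457 for ECM10. At 3% the diploid arrays of HSP78, 655.2 and 586.1, lay on both sides of those of the a-labelled haploid, 589.2 and 591.5. The alpha-labelled haploid alone was lower, at 326.3 and 312.7. The a-labelled haploid carried alpha-specific transcripts, with mean signals of 991.3 to 4665, and the part of this in the differences was not tested. Of these 9 differences, those of HSP78 between the haploids and from 3% to 7% kept their calls under all 29 alternatives tried for each, and the other 6 lost theirs under at least 1 of them.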

How the results depend on the processing

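Of 5814 values of the 8 genes under alternatives, 5601 kept their side of the threshold, 147 lost a call and 62 gained one. The other 4 changed sign with a call either before or after. The 5601 include 206 that changed sign with no call in either setting. HSP78 kept its call at 7% in the mean of strains and in each strain under all alternatives tried. The 4 that turned were HSP78 at 3% in the mean of strains without the alpha-labelled haploid (0.0842), SSC1 at 7% with median centring (-0.16), SSQ1 at 7% with quantile normalization (-0.021), and HSP10 at 7% in the a-labelled haploid with median centring (-0.075). Of these, SSC1 was called only after turning, and the others only as reported. The cause was not tested. Over all genes, the counts at 7% were 2592 higher and 1196 lower as reported, 1874 and 1844 with quantile normalization, 1623 and 2207 with median centring, and 1869 and 1369 without scaling. At 3% the counts were 1716 and 929, against 1242 and 1206, 1206 and 1292, and 1168 and 644, and from 3% to 7% 2038 and 982, against 1516 and 1467, 1205 and 1804, and 1154 and 1152.

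The number of the 8 genes called moved as follows. With quantile normalization it was 3 at 7% in the mean of strains (6 as reported), 0 at 3% in the diploid (2), 1 for the difference between the haploids at 7% (4), 2 and 3 from 3% to 7% in the alpha- and a-labelled haploids (1 and 1), 1 for the diploid difference from 3% to 7% (2), and 2 between the diploid and the haploids at 3% (1). With median centring it was 3 at 7% in the mean of strains, 1 at 3% in the a-labelled haploid (3), 1 at 7% in the diploid (4), 2 and 2 from 3% to 7% in the a-labelled haploid and the diploid (1 and 4), 2 between the diploid and the haploids at 3%, and 1 between the haploids at 3% (4). Without scaling it was 1 at 3%, 3 at 7% and 1 from 3% to 7% in the mean of strains (2, 6 and 3). In the diploid it was then 0 at 3%, 1 at 7% and 2 from 3% to 7%. For the diploid difference it was 0 at 3% and 1 from 3% to 7%, for the difference between the haploids 1 at 3%, and between the haploids at 0% it was 1 (2). A pseudocount of 1 left 1 gene for the diploid difference from 3% to 7%, and the 18S rRNA signal as a covariate left 1 at 3% in the a-labelled haploid. Without the intensity trend it was 1 and 2 between the haploids at 0% and 3%, and 1 between the diploid and the haploids at 7% (0).

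Leaving out each array in turn gave 1 to 2 genes at 3% in the alpha-labelled haploid, 1 to 3 in the a-labelled haploid and 0 to 2 in the diploid. The diploid difference had 0 to 2 at 3% and 1 to 2 from 3% to 7%, and that between the haploids 1 to 3 at 3% and 2 to 5 at 7%. From 3% to 7% the alpha- and a-labelled haploids had 1 to 2 and the diploid 2 to 4. Between the haploids it was 1 to 3 at 0%, 1 to 5 at 3% and 1 to 3 at 7%, and between the diploid and the haploids at 0% it was 0 to 1.

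Replicate numbers are shared between groups, but the labels do not say that they pair samples. Deviations of same-numbered arrays correlated at -0.25 to 0.18 over the 36 pairs of groups (median 0.047), so the numbers were not taken as pairs. With the replicate block 6 genes were called at 7% in the mean of strains, as without it, and 4 in place of 3 in the alpha-labelled haploid, with HSP10 added (0.19, adjusted p = 0.0459). Groups of 2 arrays and the low signal of ECM10, 1.83 to 5.5 times the background limit, limit what can be told. Where a pair of arrays was reduced to 1, the lone array was assumed to vary like the others. An omitted array that was no part of a comparison left its change as it was and acted only through the shared estimate of the spread.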

Other observations

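The genes whose group means most resembled those of the other mitochondrial chaperones were, in first place, KSP1 for HSP60 (Pearson r = 0.97 over 9 group means), MIX14 for HSP10 (0.99), CSH1 for SSC1 (0.92), NKP1 for ECM10 (0.97), RIM15 for MDJ1 (0.95), LSM7 for MGE1 (0.87) and MDM10 for SSQ1 (0.96). The search left out the 8 chaperones. Between the chaperones themselves, HSP10 and SSQ1 had r = 0.81, ECM10 and MDJ1 r = 0.71, and HSP78 and MGE1 r = 0.57, over group means that share arrays and scaling.

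ZIM17, which keeps Ssc1 soluble, was called in the diploid at 7% (0.95 ± 0.25, adjusted p = 0.00334) and was at -0.49 in the alpha-labelled haploid (adjusted p = 0.122) and 0.20 in the a-labelled haploid (adjusted p = 0.508). Its change in the diploid exceeded the mean of the haploids by 1.1 ± 0.31 (adjusted p = 0.0311, 9.21% of all genes called). At 3% the diploid change was larger, at 1.42 ± 0.25 (adjusted p = 0.000541), and exceeded the mean of the haploid changes by 1.28 ± 0.31 (adjusted p = 0.0124, 8.97% called). The diploid arrays of ZIM17 lay apart, at 120.8 and 85.4 at 0%, 273.9 and 326.8 at 3%, and 268.1 and 166.2 at 7%. At 0% they lay below those of both haploids, at 208.4 and 272.8 (alpha-labelled) and 233.7 and 336.6 (a-labelled). At 3% they lay within the range of the haploid arrays, 197.6 to 432.7. JAC1, the partner of Ssq1, rose in each strain, by 0.47 ± 0.12 in the alpha-labelled haploid, 0.91 ± 0.12 in the a-labelled haploid and 0.95 ± 0.12 in the diploid. TIM44 was called lower in each, at -0.46 ± 0.18, -0.48 ± 0.18 and -0.58 ± 0.18 in that order. In the a-labelled haploid its arrays overlapped, at 433.2 and 786.2 at 0% and 387.7 and 443.0 at 7%. NFS1 fell too, at -1.11 ± 0.083 in the alpha-labelled haploid, -0.40 ± 0.083 in the a-labelled haploid and -1.15 ± 0.083 in the diploid. The difference between the haploids was 0.71 ± 0.12 (adjusted p = 0.000179, 37.9% of all genes called). These haploids differed in NFS1 signal at 0%, at 1378 and 1318 (alpha-labelled) against 787.7 and 857.4 (a-labelled). At 7% their arrays overlapped, at 664.7 and 570.7 against 634.8 and 603.3.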
